A study of Mus musculus with 12 samples.

Results

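Of 19938 genes with a single-gene probe set, 10 genes of epithelial junctions and keratin filaments were followed across 12 Affymetrix Mouse Gene 1.0 ST arrays of mouse cells on the way to pluripotency. They were named by symbol, not by a threshold: the adhesion molecules Cdh1 and Epcam, the tight junction strand proteins Cldn4, Cldn6, Cldn7 and Ocln, the keratins Krt8 and Krt18, and the regulators Esrp1 and Grhl2. Earlier results of these arrays were known when the genes were named. Each has 1 single-gene probe set, and all 10 were measured. The study asked how astrocytes become induced pluripotent stem cells (iPSCs), and how the cells met on the way compare with neural stem cells (NSCs). The arrays fall into 5 groups. Astrocytes (3 arrays) were grown from the cortex of pups at postnatal day 3 in 10% serum and sorted as negative for green fluorescent protein (GFP) driven by the neural stem cell gene Sox1. The day 6 cells (3 arrays) were astrocytes that had received retroviral Oct4, Klf4, Sox2 and c-Myc and were sorted as GFP-positive on day 6, in 15% serum with LIF at 1000 U/ml. Astrocyte iPSCs (2 arrays) were mature cells established from such astrocytes, and MEF iPSCs (2 arrays) came from mouse embryonic fibroblasts (MEFs) as the single line iPS-MEF-Ng-20D-17. Both grew on growth-arrested MEF feeder cells in 15% serum or serum replacement with LIF at 1500 U/ml. NSCs (2 arrays) were taken from embryonic telencephalon at day 12.5 to 14.5 and kept in N2 medium with basic FGF and EGF at 20 ng/ml each. All groups except the MEF iPSCs carried GFP in one Sox1 allele (Sox1+/-), the MEF iPSCs carried a Nanog-GFP-IRES-Puro reporter, and age, medium and feeder cells go with the groups.

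Epithelial cells hold to each other through adherens junctions, in which the cadherin Cdh1 bridges neighbours, and seal the space between them with tight junctions, whose strands are built from claudins and occludin. Keratins 8 and 18 pair to form the first filaments of simple epithelia. Mouse pluripotent cells grow as compact colonies and use Cdh1, and a shift from mesenchymal to epithelial gene expression is known as an early part of reprogramming in mouse fibroblasts. Repressors of the Snail and Zeb families hold epithelial genes down by binding E-boxes of the sequence CAGGTG, as is well known for Cdh1.

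The stretches just upstream of several of these genes show where such E-boxes lie. RefSeq promoter windows of build GRCm38.p6 were matched for 7 of the 10 genes, all but Cdh1, Esrp1 and Grhl2. The 250 bases before each start were searched for CAGGTG on both strands (CACCTG on the strand shown). The letters were found in 7 of 9 windows (77.8%), against 5657 of all 32851 windows (17.2%). Each of the 7 genes had at least 1 window with a match, although Cldn7 and Ocln have 2 windows each, of which only the second, wholly (Cldn7) or mostly (Ocln) inside the gene, held matches. The GRHL consensus AACCGGTT was in 0 of the 9 windows and in 0.116% of all windows. The windows of these genes were 51.2% to 69.2% G or C, against a median of 52.4% over all windows. A match is only a run of letters, and binding was not measured. Windows of 6 genes are shown 5′ to 3′ on the gene's strand with each match in capitals, chosen for the gene with the largest early gain (Epcam), 2 late claudins, the keratin pair and the gene that went its own way (Ocln). Epcam is at chr17:87635729-87635978 (+), Cldn6 at chr17:23679115-23679364 (+), Cldn4 at chr5:134946935-134947184 (-), Krt8 at chr15:102004343-102004592 (-), Krt18 at chr15:102027966-102028215 (+) and the first Ocln window, which holds no match, at chr13:100552719-100552968 (-).
Epcam: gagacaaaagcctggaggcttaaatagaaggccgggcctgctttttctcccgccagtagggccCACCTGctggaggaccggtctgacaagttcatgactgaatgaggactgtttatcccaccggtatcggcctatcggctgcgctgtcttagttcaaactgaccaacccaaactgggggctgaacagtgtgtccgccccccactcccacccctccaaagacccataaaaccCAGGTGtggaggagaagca
Cldn6: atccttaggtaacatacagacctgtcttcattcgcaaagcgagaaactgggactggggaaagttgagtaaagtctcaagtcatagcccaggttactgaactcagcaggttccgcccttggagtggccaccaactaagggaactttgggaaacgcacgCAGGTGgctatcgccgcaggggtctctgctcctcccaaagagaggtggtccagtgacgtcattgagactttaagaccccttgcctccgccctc
Cldn4: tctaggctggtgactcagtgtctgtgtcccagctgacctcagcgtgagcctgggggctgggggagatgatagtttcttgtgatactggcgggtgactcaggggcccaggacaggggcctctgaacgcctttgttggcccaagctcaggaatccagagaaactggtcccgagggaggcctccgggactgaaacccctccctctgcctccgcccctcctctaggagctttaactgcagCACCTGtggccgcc
Krt8: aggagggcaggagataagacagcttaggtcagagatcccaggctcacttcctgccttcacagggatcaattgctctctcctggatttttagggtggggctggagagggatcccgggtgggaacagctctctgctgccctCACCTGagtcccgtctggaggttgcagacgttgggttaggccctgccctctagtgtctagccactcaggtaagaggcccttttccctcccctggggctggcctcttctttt
Krt18: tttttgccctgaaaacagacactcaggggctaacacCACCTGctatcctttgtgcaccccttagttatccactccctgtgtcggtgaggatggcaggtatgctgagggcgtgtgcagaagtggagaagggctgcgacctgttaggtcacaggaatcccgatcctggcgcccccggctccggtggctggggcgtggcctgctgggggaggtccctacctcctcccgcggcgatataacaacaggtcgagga
Ocln: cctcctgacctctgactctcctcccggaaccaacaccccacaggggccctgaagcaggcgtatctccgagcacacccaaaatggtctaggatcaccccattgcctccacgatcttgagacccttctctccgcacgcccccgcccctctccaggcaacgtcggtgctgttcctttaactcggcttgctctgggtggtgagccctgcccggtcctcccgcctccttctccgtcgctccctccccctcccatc
Counting the base before the start as -1, the matches begin at -187 and -19 in Epcam, at -93 in Cldn6, at -14 in Cldn4, at -111 in Krt8 and at -214 in Krt18. In the second windows, which are not shown, they begin at -213 and -68 in Ocln and at -97 and -57 in Cldn7. The Krt8 and Krt18 windows lie on opposite strands of chromosome 15, with the genes read away from each other.

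Values below are log2 of the deposited intensity, errors of levels are standard deviations (SD) and errors of differences are limma standard errors (SE). The middle probe set of an array stood at 6.67 on this scale (median over the arrays). A gene was called where limma's Benjamini-Hochberg adjusted p over all genes was under 0.05 and the difference was at least 1 on the log2 scale. Arrays of 1 group correlated with each other at Pearson's r of 0.992 to 0.996 across probe sets. The labels name the replicates without saying which animals or cultures they came from, so the p values rest on how far these arrays differ, which may be technical. Of the markers of the labelled cell types, 7 of 8 astrocyte markers were above the array median on every astrocyte array, and 8 of 8 pluripotency markers on every array of both iPSC groups. The 7 measured NSC markers were above it on every NSC array, but also on every astrocyte array, and 5 of 7 on every day 6 array. In day 6 cells 5 of the 7 were called lower and 0 higher than in NSCs (median log2 difference -2.31). Against astrocytes also 5 were called lower and 0 higher (median -3.32). Of all 19938 genes 1185 and 2014 were called lower in these comparisons. Sox1, Sox2 and Nes were also above the array median on every array of both iPSC groups. Of the pluripotency markers 2 of 8, Nanog and Pou5f1, were above the array median on every day 6 array. Pou5f1 (Oct4) and Sox2 were also delivered to these cells by retrovirus, and whether their probe sets read the vectors was not tested.

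**Figure D1:**
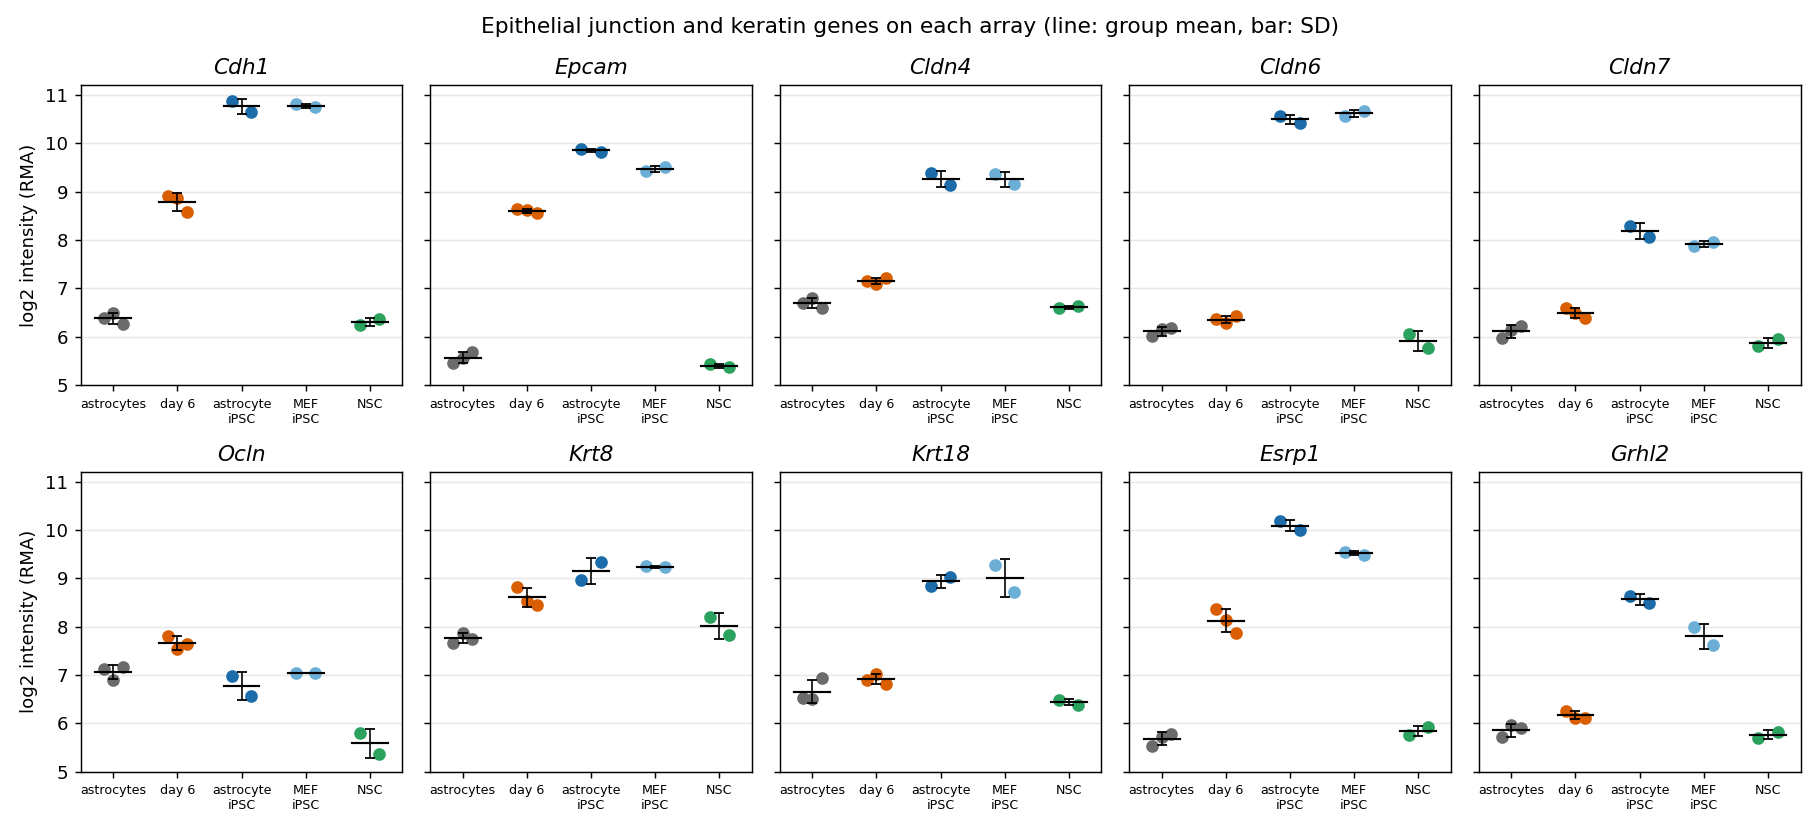
Log2 intensity of each of the 10 genes (y axis, RMA values) on each array by group (x axis), with points for arrays, lines for group means and bars for SD. Epcam, Cdh1 and Esrp1 are already high on the 3 day 6 arrays, Cldn4, Cldn6, Cldn7, Krt18 and Grhl2 are high only on the 4 iPSC arrays, and Ocln is highest at day 6.

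In day 6 cells 3 of the 10 genes were called higher than in astrocytes. They were the adhesion molecules Epcam and Cdh1 and the splicing factor Esrp1, at 8.24, 5.32 and 5.46 times the astrocyte level. Without the fold limit 9 of the 10 were higher (adjusted p under 0.05, limma), where 9755 of all genes passed in either direction. With cyclic loess Cldn6 and Grhl2 of these did not pass at that adjusted p. Between day 6 and the astrocyte iPSCs 8 were called higher, Cldn6 most, 17.7 times. By the iPSC stage 9 of 10 were above astrocytes, and Ocln was not. Among all genes 6.75% were called higher in day 6 cells than in astrocytes, 3.29% higher in astrocyte iPSCs than in day 6 cells and 9.44% higher in astrocyte iPSCs than in astrocytes. The median log2 difference of the 10 genes was 0.52 in the first of these comparisons, 1.97 in the second and 2.63 in the third, where the medians of all genes were 0.04, -0.03 and 0.01. These comparisons share arrays, so their values stand side by side and are not independent. The 10 genes were chosen with earlier results of these arrays known, so the shares of all genes are no test of them.

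Epcam, an adhesion molecule of epithelial and pluripotent cell surfaces, made most of its gain on the log2 scale before day 6. Its geometric mean intensity was 47.2 in astrocytes, 389 in day 6 cells and 926 in astrocyte iPSCs. In log2, Epcam read 5.46, 5.55 and 5.68 in astrocytes, 8.64, 8.62 and 8.55 in day 6 cells and 9.88 and 9.83 in astrocyte iPSCs. In MEF iPSCs it read 9.43 and 9.52, and in NSCs 5.43 and 5.37. All day 6 arrays lay above all astrocyte and NSC arrays and below all iPSC arrays. Day 6 cells exceeded astrocytes by 3.04 ± 0.07 (adjusted p = 4.03e-11, limma), and astrocyte iPSCs exceeded day 6 cells by 1.25 ± 0.08 (adjusted p = 3.50e-07, limma). On the log2 scale 70.9% of the difference between astrocyte iPSCs and astrocytes was present at day 6.

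Cdh1, E-cadherin, the core of epithelial adherens junctions, rose in both steps. Its values were 6.38, 6.49 and 6.27 in astrocytes, 8.92, 8.87 and 8.58 in day 6 cells and 10.88 and 10.65 in astrocyte iPSCs. The MEF iPSCs read 10.81 and 10.75, and the NSCs 6.24 and 6.36. Day 6 arrays lay between astrocyte and NSC arrays below and iPSC arrays above, with no overlap. The early difference was 2.41 ± 0.10 (adjusted p = 3.51e-09, limma) and the late one 1.97 ± 0.11 (adjusted p = 1.95e-07, limma), so that 55.0% of the log2 difference was present at day 6. In these bulk samples, fewer positive cells and less RNA per cell cannot be told apart.

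The claudins behaved otherwise. Claudins are the membrane proteins that set what a tight junction lets through, and Cldn6 is an early embryonic member of the family. Cldn6 read 6.01, 6.16 and 6.18 in astrocytes, 6.36, 6.28 and 6.42 in day 6 cells and 10.56 and 10.43 in astrocyte iPSCs. Its values were 10.57 and 10.67 in MEF iPSCs and 6.05 and 5.77 in NSCs. The 4 iPSC arrays stood far above the other 8. The difference between day 6 cells and astrocytes was 0.23 ± 0.08 (adjusted p = 0.0396, limma, below the fold limit), with no overlap between the arrays. Astrocyte iPSCs exceeded day 6 cells by 4.14 ± 0.09 (adjusted p = 2.41e-10, limma), and only 5.32% of the log2 difference was present at day 6.

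Cldn4, a barrier-forming claudin, read 6.69, 6.81 and 6.59 in astrocytes, 7.15, 7.08 and 7.21 in day 6 cells and 9.38 and 9.14 in astrocyte iPSCs. It read 9.37 and 9.15 in MEF iPSCs and 6.59 and 6.63 in NSCs. Day 6 arrays were above all astrocyte arrays, by a mean of 0.45 ± 0.09 (adjusted p = 9.34e-04, limma, below the fold limit). The late step was 2.11 ± 0.10 (adjusted p = 4.03e-08, limma).

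Cldn7, a claudin of the lateral membrane that can bind Epcam, read 5.97, 6.14 and 6.23 in astrocytes, 6.59, 6.49 and 6.39 in day 6 cells and 8.30 and 8.07 in astrocyte iPSCs. In MEF iPSCs it read 7.88 and 7.96, and in NSCs 5.80 and 5.95. Its course was that of Cldn4 at a smaller size, 0.38 ± 0.09 in the early step (adjusted p = 0.00404, limma, below the fold limit) and 1.70 ± 0.10 in the late step (adjusted p = 2.96e-07, limma). The shares present at day 6 were 17.5% for Cldn4 and 18.2% for Cldn7.

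Ocln, occludin, a tight junction protein of another family, did not follow the claudins. It read 7.13, 6.90 and 7.16 in astrocytes, 7.81, 7.53 and 7.64 in day 6 cells and 6.98 and 6.57 in astrocyte iPSCs. The MEF iPSCs read 7.05 and 7.04 and the NSCs 5.80 and 5.37. The day 6 arrays were the 3 highest of the 12, and the NSC arrays the 2 lowest. Day 6 cells exceeded NSCs by 2.07 ± 0.15 (adjusted p = 7.76e-07, limma). Against astrocytes the difference was 0.60 ± 0.13 (adjusted p = 0.00253, limma), below the fold limit. Astrocyte iPSCs differed from day 6 cells by -0.88 ± 0.15 (adjusted p = 8.23e-04, limma), also below it. Without astrocyte iPSC replicate 1 this last difference was -1.09 and was called, and without replicate 2 it was -0.68. Replicate 2 also had the higher summed fibroblast and feeder markers of the pair, 6260 against 3510, whose part in the result was not tested. Astrocyte iPSCs and astrocytes differed by -0.29 ± 0.15, with a 95% interval of -0.61 to 0.04.

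The 2 keratins, obligate partners in the filament, moved unequally. Krt8, the type II partner, read 7.66, 7.87 and 7.75 in astrocytes, 8.82, 8.54 and 8.46 in day 6 cells and 8.96 and 9.35 in astrocyte iPSCs. It read 9.26 and 9.23 in MEF iPSCs and 8.20 and 7.82 in NSCs. It was above the array median on all 12 arrays, astrocytes and NSCs included. Its steps were small and both below the fold limit, 0.85 ± 0.13 before day 6 (adjusted p = 1.77e-04, limma) and 0.54 ± 0.15 after it (adjusted p = 0.0155, limma). Together they made a called difference of 1.39 ± 0.15 between astrocyte iPSCs and astrocytes (adjusted p = 6.93e-06, limma), of which 60.9% was present at day 6.

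Krt18, the type I partner, read 6.53, 6.51 and 6.94 in astrocytes, 6.90, 7.02 and 6.82 in day 6 cells and 8.84 and 9.04 in astrocyte iPSCs. In MEF iPSCs it read 9.28 and 8.73, and in NSCs 6.48 and 6.39. Day 6 and astrocyte arrays overlapped, and the difference of 0.26 ± 0.15 did not pass (adjusted p = 0.185, limma, 95% interval -0.07 to 0.58). The late step was 2.03 ± 0.16 (adjusted p = 3.31e-06, limma). At day 6 only 11.3% of the log2 difference between astrocyte iPSCs and astrocytes was present.

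Esrp1 and Grhl2 regulate epithelial genes. Esrp1, an RNA-binding protein that sets epithelial splice forms, read 5.53, 5.72 and 5.79 in astrocytes, 8.36, 8.14 and 7.88 in day 6 cells and 10.18 and 10.01 in astrocyte iPSCs. It read 9.55 and 9.49 in MEF iPSCs and 5.77 and 5.92 in NSCs. As with Cdh1, the day 6 arrays stood apart from both sides, 2.45 ± 0.12 above astrocytes (adjusted p = 9.21e-09, limma) and 1.97 ± 0.13 below astrocyte iPSCs (adjusted p = 6.40e-07, limma). The share present at day 6 was 55.4%.

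Grhl2, a grainyhead-like transcription factor that activates Cdh1 and claudin genes in epithelia, read 5.71, 5.97 and 5.90 in astrocytes, 6.26, 6.12 and 6.12 in day 6 cells and 8.64 and 8.49 in astrocyte iPSCs. Its values were 7.99 and 7.62 in MEF iPSCs and 5.70 and 5.83 in NSCs. The early difference was 0.31 ± 0.10 (adjusted p = 0.0262, limma, below the fold limit) and the late one 2.40 ± 0.11 (adjusted p = 5.45e-08, limma). At day 6, 11.4% of its log2 difference between astrocyte iPSCs and astrocytes was present. Grhl2 averaged 5.86 ± 0.14 in astrocytes and 6.17 ± 0.08 in day 6 cells, both below the array median.

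Whether the log2 gain of a gene was larger before or after day 6 was tested within the same fit. The contrast was the late step minus the early step. Of the 10 genes 5 were called late, namely Cldn6 (3.91 ± 0.15), Grhl2 (2.09 ± 0.18), Krt18 (1.77 ± 0.27), Cldn4 (1.66 ± 0.16) and Cldn7 (1.32 ± 0.16). Called early were 2, Epcam (-1.79 ± 0.12) and Ocln (-1.48 ± 0.24), of which Ocln had a negative late step. Adjusted p values of these 7 genes were 3.81e-04 or lower (limma). Cdh1 (-0.44, 95% interval -0.84 to -0.04), Esrp1 (-0.48, -0.94 to -0.02) and Krt8 (-0.30, -0.83 to 0.22) were not called. Of all genes 12.3% were called higher and 8.31% lower in this contrast.

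**Figure D2:**
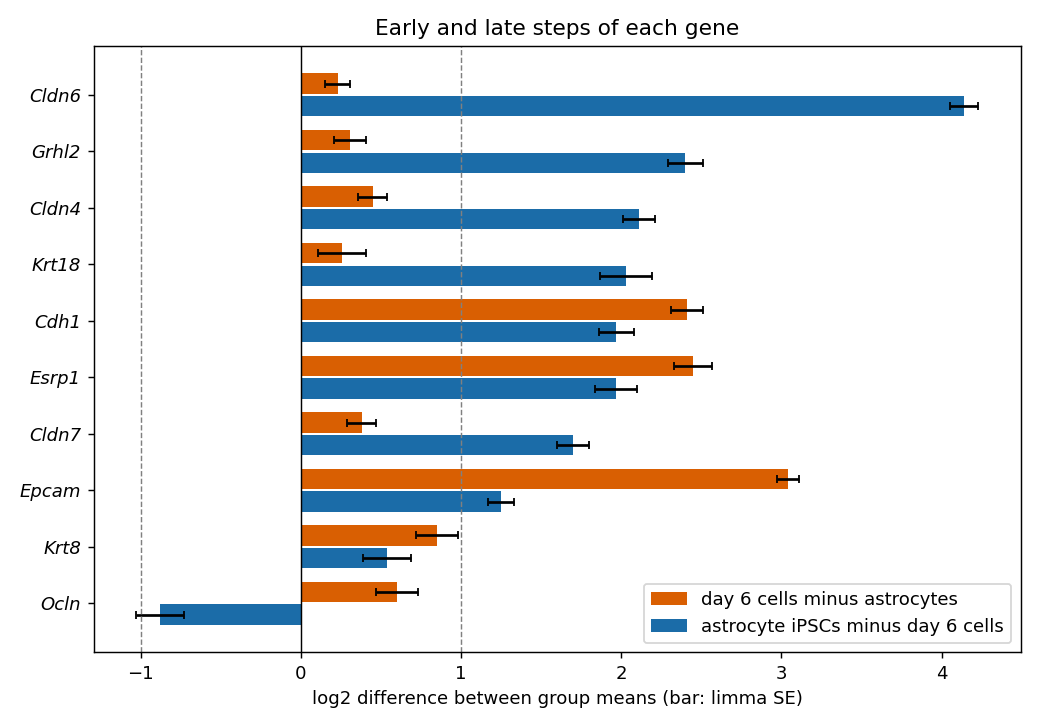
Log2 difference of day 6 cells minus astrocytes (orange) and of astrocyte iPSCs minus day 6 cells (blue) on the x axis, with limma SE as error bars and dashed lines at 1 and -1. Genes run down the page by the size of the late step, from Cldn6 at 4.14 to Ocln at -0.88, and Epcam has the longest early bar at 3.04.

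Ordered by the gain from day 6 to astrocyte iPSCs, the genes ran Cldn6 (4.14), Grhl2 (2.40), Cldn4 (2.11), Krt18 (2.03), Cdh1 (1.97), Esrp1 (1.97), Cldn7 (1.70), Epcam (1.25), Krt8 (0.54) and Ocln (-0.88). Only some neighbours stood apart by more than 2 combined SE. Cldn6 was apart from Grhl2, with a gap of 1.74 against a combined SE of 0.15. Epcam was apart from Cldn7 on one side and from Krt8 on the other, with gaps of 0.45 and 0.71, and Krt8 from Ocln with a gap of 1.43. Between Grhl2 and Cldn7 each gap to the next gene was 0.29 or less and within 2 combined SE, so neighbours in this block of 6 do not differ beyond their spread. The ends of the block lay further apart, with 95% intervals of 2.15 to 2.65 for Grhl2 and 1.47 to 1.92 for Cldn7. No contrast between genes was fitted, and the combined SE treats the genes as independent.

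The MEF iPSCs, which never were astrocytes, gave a second measure of the late level, against the same day 6 arrays. Of the 10 genes 7 were called higher in MEF iPSCs than in day 6 cells, where 3.18% of all genes were. Cldn6 again led with 4.26 ± 0.09, and Cldn4 (2.11 ± 0.10), Krt18 (2.09 ± 0.16) and Cdh1 (1.99 ± 0.11) followed. Grhl2 took the fifth place with 1.64 ± 0.11, then Cldn7 (1.43 ± 0.10) and Esrp1 (1.40 ± 0.13). Epcam (0.87 ± 0.08), Krt8 (0.64 ± 0.15) and Ocln (-0.61 ± 0.15) stayed below the fold limit. The first and the last 3 places were those of the astrocyte iPSCs.

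Set directly against each other, astrocyte iPSCs and MEF iPSCs had none of the 10 genes called in either direction by limma, where 0.461% of all genes were called higher and 0.281% lower. Without the adjustment 4 of the 10 had p under 0.05, a bar at which all genes were not counted. At adjusted p under 0.05 without the fold limit 3 of the 10 passed, where 1150 of 19938 genes did (limma). Grhl2 was higher in astrocyte iPSCs by 0.76 ± 0.13 (adjusted p = 0.00481, limma), Esrp1 by 0.57 ± 0.14 (adjusted p = 0.0392, limma) and Epcam by 0.38 ± 0.08 (adjusted p = 0.0224, limma), all below the fold limit. For each of these 3 genes, and for Cldn7, both astrocyte iPSC arrays lay above both MEF iPSC arrays. For Cldn6 and Ocln both lay below. The share of all genes so separated was not counted. Apart from Grhl2, Esrp1 and Epcam, the 95% intervals of the 7 genes lay between -0.63 and 0.51, and Cldn7 (0.03 to 0.51) alone of them excluded 0.

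**Figure D3:**
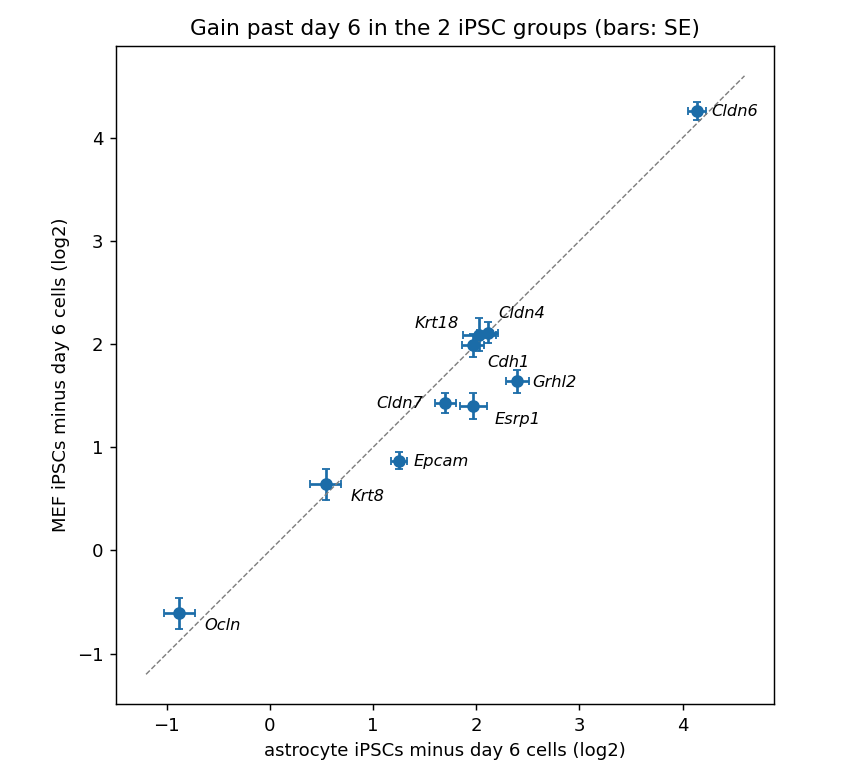
Difference from day 6 cells in astrocyte iPSCs (x axis) and in MEF iPSCs (y axis), log2, with limma SE as bars and the line of equal values dashed. Cldn6 is far out at 4.14 and 4.26, and Grhl2, Esrp1 and Epcam lie below the line.

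Against NSCs, 4 of the 10 genes were called higher in day 6 cells, where 2.94% of all genes were. These were Epcam (3.21 ± 0.08), Cdh1 (2.50 ± 0.11), Esrp1 (2.28 ± 0.13) and Ocln, given above. The largest adjusted p of these 4 was 7.76e-07 (limma). The other 6 differed by 0.40 to 0.62, all with adjusted p of 0.0398 or lower (limma) and below the fold limit. Without that limit 7655 of all genes passed in either direction. With cyclic loess the adjusted p of Krt18 and of Grhl2 was above 0.05 (limma). NSCs and astrocytes were both at the low end. Only Ocln was called between them, lower in NSCs (log2 difference -1.48 ± 0.15, adjusted p = 7.03e-06, limma), and 8.1% of all genes were called lower. None was called higher in NSCs by limma, where 6.49% of all genes were, and none had p under 0.05 in that direction without the adjustment. In the order of levels over the 5 groups, astrocytes and NSCs lay within 2 SE of each other for Cdh1, Cldn4, Krt8, Krt18, Esrp1 and Grhl2. Day 6 cells held the third place for 9 genes and the first for Ocln.

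Other genes of the epithelial programme were read over the same 2 steps, shown in the plot of early and late steps. Genes counted as risen or fallen are those called. In the late step 2.82% of all genes were called lower, and in the early step 10.1%. Of 17 further tight junction genes 2 rose and 2 fell by day 6 (median 0.09), and 3 rose and 1 fell from day 6 to the astrocyte iPSCs (median 0.19). F11r (JAM-A), an adhesion molecule of the tight junction, rose in both steps, by 1.23 ± 0.13 and 1.45 ± 0.15, and so did Lsr, a protein of tricellular contacts, by 1.05 ± 0.11 and 1.18 ± 0.12. Cgn, the linker cingulin, rose in the late step (1.21 ± 0.16, with 0.13 ± 0.14 in the early step), and its late minus early contrast was 1.08 ± 0.26 (adjusted p = 0.00561, limma). The scaffolds Mpp5 and Tjp1 (ZO-1), which neural cells also use, fell by day 6, with log2 differences of -1.57 ± 0.11 and -1.07 ± 0.08.

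Among 16 adherens junction and desmosome genes, 3 rose and 1 fell by day 6 (median 0.20), and 3 rose and 2 fell in the late step (median 0.03). Several desmosome genes were higher in day 6 cells than in astrocytes. Perp, a desmosomal membrane protein and p53 target, averaged 6.77 ± 0.24 in astrocytes, 10.73 ± 0.16 in day 6 cells and 8.78 ± 0.22 in astrocyte iPSCs, with steps of 3.96 ± 0.14 and -1.96 ± 0.16. Dsp, desmoplakin, which ties keratin filaments to desmosomes, rose by 3.01 ± 0.16 and then differed by -0.95 ± 0.17, below the fold limit. Pkp1, a plakophilin of desmosomes, rose by 1.54 ± 0.13 and fell by 1.36 ± 0.15 on the log2 scale. Dsg2, a desmosomal cadherin, and Cdh3, P-cadherin, were late, with late steps of 2.21 ± 0.09 and 1.57 ± 0.11.

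Of 9 further keratins only Krt17, a keratin of stressed and embryonic epidermis, was called by day 6 (1.10 ± 0.11), and 0 were called in the late step by limma, where 2 were higher and 2 lower at an unadjusted p under 0.05. Of 10 further regulators 5 rose by day 6 with 0 lower by limma, called or at an unadjusted p under 0.05 (median 0.90), and 3 rose and 2 fell later. Ehf, an ETS factor of epithelia, rose by 2.18 ± 0.18 and fell by 2.10 ± 0.20, and Tfap2a, an AP-2 factor of surface ectoderm, rose by 1.38 ± 0.09 and fell by 1.56 ± 0.10. Esrp2, the paralogue of Esrp1, rose by 1.44 ± 0.12 by day 6, and its late step did not pass (-0.06 ± 0.13, adjusted p = 0.815, limma). Elf3, another epithelial ETS factor, rose in the late step by 1.61 ± 0.14.

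Of 12 membrane and trafficking genes 5 rose and 2 fell by day 6 (median 0.47), and 7 rose and 1 fell later (median 1.19). Ap1m2, the epithelial sorting adaptor subunit, and Prss8, the membrane protease prostasin, had late steps of 2.38 ± 0.10 and 2.27 ± 0.12, close to that of Grhl2, and early steps of 0.46 ± 0.09 and 0.11 ± 0.11. Mal2, a protein of apical transport, fell and then rose (-2.42 ± 0.19 and 1.16 ± 0.21), and Ddr1, a collagen receptor kinase, fell by day 6 (-3.26 ± 0.10). Cd24a, a surface glycoprotein, rose by 1.32 ± 0.10 and fell by 1.63 ± 0.11. Of 10 repressors and mesenchymal genes 0 rose and 5 fell by day 6 by limma (median -1.34), with 1 higher at an unadjusted p under 0.05, and 2 rose and 2 fell later. Cdh2, N-cadherin, fell in both steps (-2.43 ± 0.12 and -1.73 ± 0.14), where Cdh1 rose in both. Cdh11 and Fn1, a cadherin and a matrix protein of mesenchymal cells, fell by day 6 (-3.09 ± 0.21 and -2.46 ± 0.12) and rose in the astrocyte iPSCs (1.22 ± 0.23 and 1.18 ± 0.13), as fibroblast and feeder markers did (8 of 8 called higher), whose part was not tested. The lists were chosen with earlier results of these arrays known.

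**Figure D4:**
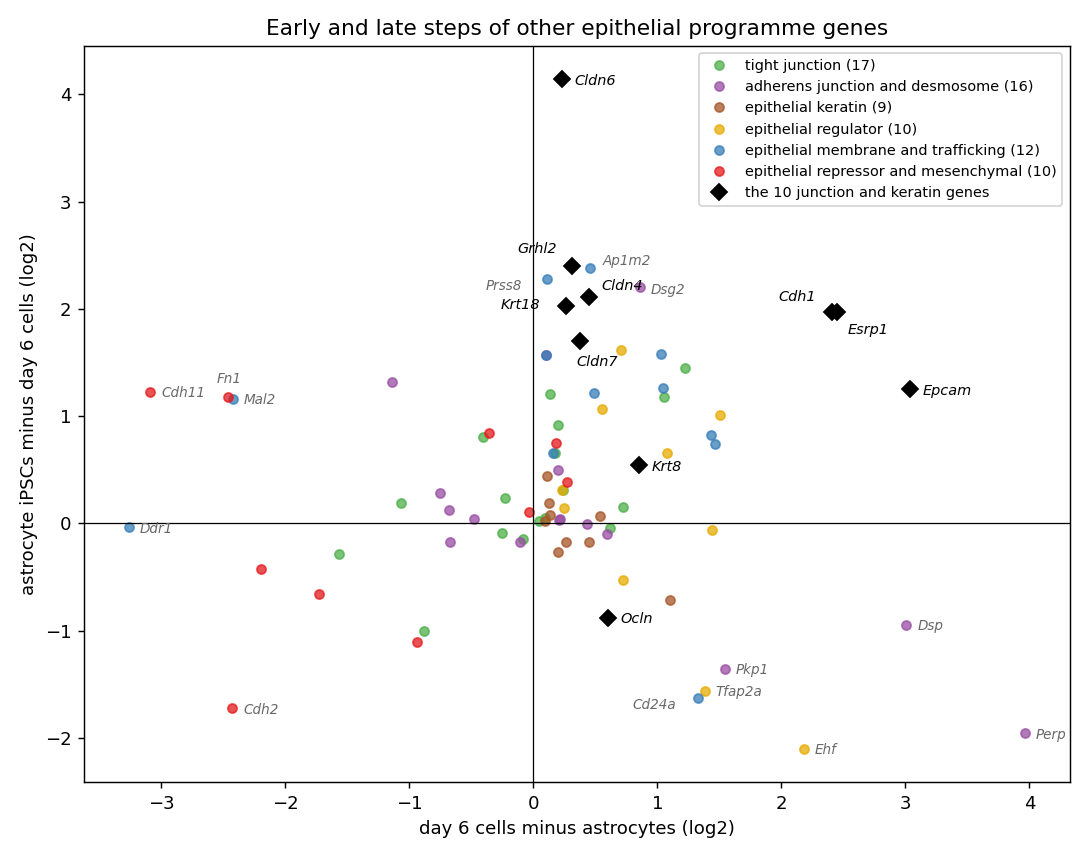
Early step (x axis, day 6 cells minus astrocytes) and late step (y axis, astrocyte iPSCs minus day 6 cells) in log2 for 74 further genes by list (circles) and the 10 genes (black diamonds). Perp, Dsp, Pkp1, Ehf and Tfap2a lie at the lower right, high at day 6 and lower in iPSCs, and Cldn6, Grhl2, Ap1m2, Prss8 and Dsg2 at the upper middle, high in iPSCs.

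The mean pattern of the 10 genes over the 12 arrays, each gene standardised, was compared with 2031 named genes whose group means spanned at least 2 on the log2 scale. The 8 most alike were St14 (r = 0.997), F11r (0.995), Eras (0.993), Fgf4 (0.991), Lsr (0.988), Pou5f1 (0.986), Dsg2 (0.985) and Nanog (0.985). St14, F11r, Lsr and Dsg2 were also on the lists above. These r values follow the gaps between groups, since all 12 arrays fall into separate groups. Against the mean of the other 9, the genes reached r between 0.919 (Cldn6) and 0.984 (Cdh1), except Ocln at 0.229.

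**Figure D5:**
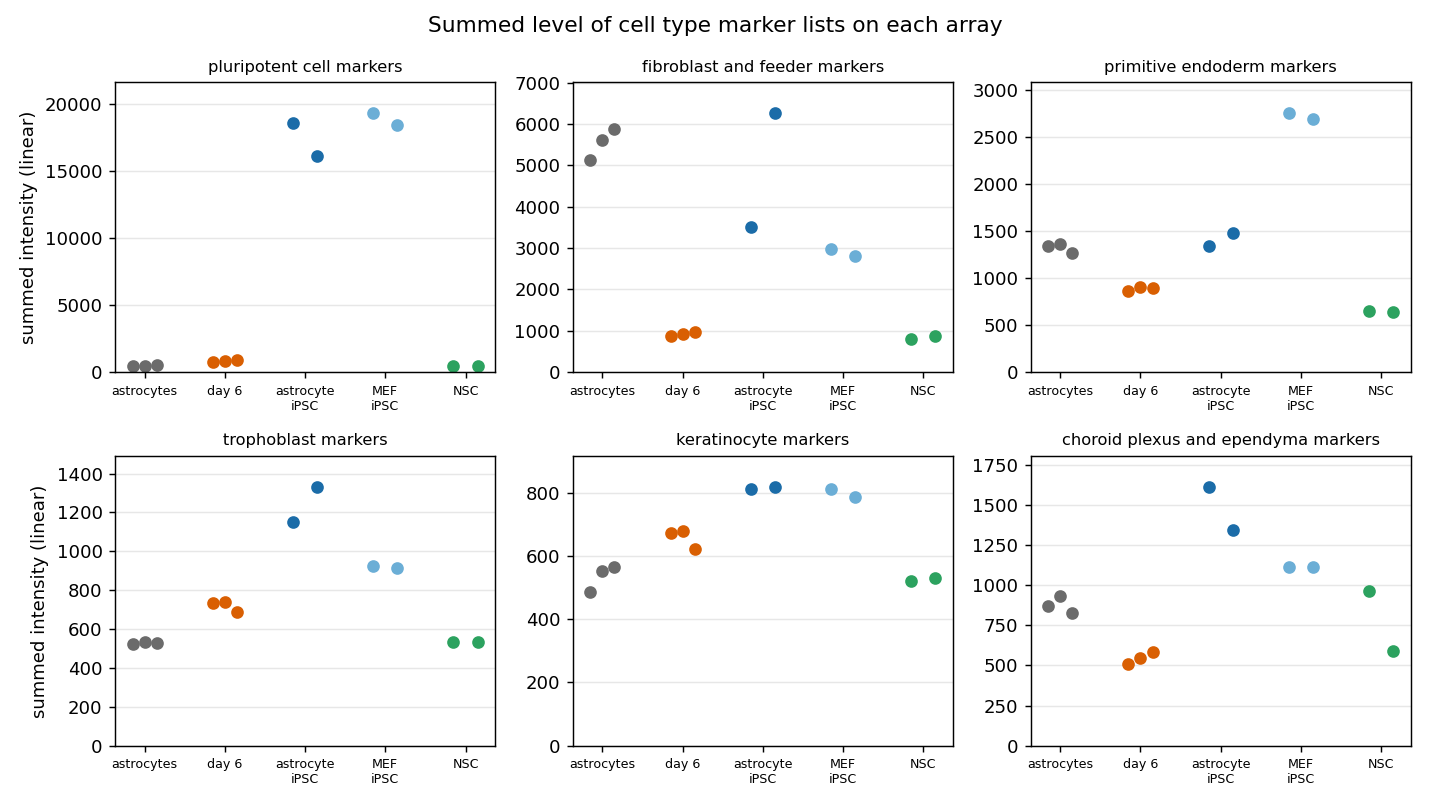
Summed linear intensity of 6 lists of 8 cell type markers (y axes, each from 0) on each array, by group. All 6 sums shown are higher on each of the 4 iPSC arrays than on each of the 3 day 6 arrays, and the meningeal sum, not drawn, is lower. A sum can follow few genes. Of 8 markers each, 1 keratinocyte, 2 trophoblast and 2 choroid plexus and ependyma markers were called higher in astrocyte iPSCs than in day 6 cells.

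Markers of other cells that carry junctions and keratins, or that grow beside iPSCs, were read on the same arrays. All 8 fibroblast and feeder markers were called higher in astrocyte iPSCs than in day 6 cells, and their summed intensity was 3510 to 6260 in astrocyte iPSCs and 2820 to 2970 in MEF iPSCs, against 862 to 964 in day 6 cells. In astrocytes the same sum was 5140 to 5880, with Thy1 at 11.79 ± 0.08 and Col1a1 at 8.79 ± 0.51. In astrocyte iPSCs Thy1 averaged 8.37 ± 0.13 and Col1a1 9.34 ± 0.47, so the sums are made up unlike. The part of these markers in the levels of the 10 genes was not tested. The summed intensity of the 8 meningeal markers went the other way, at 612 to 615 in astrocyte iPSCs and 579 to 593 in MEF iPSCs. It was 2580 to 2970 in day 6 cells and 5310 to 6230 in astrocytes. As single genes, 0 of the 8 were called higher and 1 lower in astrocyte iPSCs than in day 6 cells by limma (median log2 difference -0.08). At an unadjusted p under 0.05, 2 were higher and 2 lower. Of these 8, Foxd1, Ptgds and Crabp2 were above the array median on every day 6 array, and 1 was called higher and 2 lower in day 6 cells than in astrocytes. Their part in the day 6 levels was not tested. Of 8 primitive endoderm markers, a lineage that carries Krt8 and Krt18, 3 were called higher in astrocyte iPSCs and 4 in MEF iPSCs than in day 6 cells. Gata4, a defining factor of that lineage, averaged 7.41 ± 0.06 in astrocyte iPSCs and 8.10 ± 0.01 in MEF iPSCs, against 6.87 ± 0.09 in day 6 cells, and Gata6 averaged 7.49 ± 0.25 and 7.56 ± 0.31, against 6.23 ± 0.05. Of 8 trophoblast markers 2 were called higher in astrocyte iPSCs, where Eomes averaged 8.47 ± 0.44, against 6.01 ± 0.12 in day 6 cells. Cdx2, the defining factor of trophoblast, averaged 6.00 to 6.36 in the 5 groups, below the array median. The part of such cells in the iPSC levels was not tested. In the day 6 cells 0 of 8 keratinocyte markers were called against astrocytes by limma, with 2 higher and 0 lower at an unadjusted p under 0.05. Trp63 (6.34 ± 0.08) and Krt5 (6.38 ± 0.08), which define that cell type, were below the array median. Sfn was above it on every day 6 array. Krt14 was higher than in astrocytes by 0.45 ± 0.09 (adjusted p = 0.00112, limma, below the fold limit). The summed intensity of the 8 was 621 to 677 in day 6 cells and 485 to 564 in astrocytes. The part of such cells in the day 6 levels was not tested. Ttr, of the choroid plexus, read 8.06 and 5.78 on the NSC arrays.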

How the data were processed

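Values were deposited as a table of 12 arrays and 28853 probe sets. Per the submitters' processing notes the authors used robust multi-array averaging (RMA), and the deposited intensity values are linear, from 20.2 to 15436, with array medians of 97.9 to 104.9. The sources used here do not give the RMA version. If a constant was added to the deposited values, log2 differences of dim genes are understated. Gene names came from GEO's platform annotation, in which 21789 probe sets carry 1 symbol, and each of 19938 genes was read from its brightest such probe set (mean of the 12 arrays). Log2 values were fitted in limma 3.58.1 (R 4.3.3) with 1 mean per group (7 residual degrees of freedom, 10.9 with the prior) and without a filter on dim genes. A filter that keeps genes above the array median on at least 2 arrays would keep all 10. Fits were tested on simulated data.

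The genes and lists were chosen with earlier results of these data known. Of 149 list entries, 145 were matched. Named genes were all 10, up to 3 genes per list with the largest called difference in each step, up to 2 with the largest late minus early contrast, the 8 most alike, and set defining markers. Of RefSeq tables (GRCm38.p6), only positions and promoter windows were used. Alternatives were probe set averaging, all probe sets, a dim filter, cyclic loess, median centring, only the groups compared, trend and robust eBayes, array weights, no fold limit, 16 subtracted before log2, a replicate block, and each array left out. Tables were made in pandas 2.3.3 (Python 3.11.15) and figures in matplotlib 3.10.9.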

Additional observations from a re-analysis of the deposited data

How the results depend on the processing

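Counts of called members were equal to those given under every alternative other than 2, removal of the fold limit and leaving out astrocyte iPSC replicate 1. With the fold limit removed, 9 of the 10 genes were higher in day 6 cells than in astrocytes (9755 of all genes called), 10 higher than in NSCs (7655), 9 higher and 1 lower in astrocyte iPSCs than in day 6 cells (5896), 9 higher and 1 lower in MEF iPSCs than in day 6 cells (5932), and 3 higher in astrocyte than in MEF iPSCs (1150). All genes called then were 10173 for astrocyte iPSCs against astrocytes, 9144 for NSCs against astrocytes and 8132 for the late minus early contrast. These larger counts follow from the limit itself. Leaving out each array gave 0 to 1 genes lower in astrocyte iPSCs than in day 6 cells, the 1 being Ocln without astrocyte iPSC replicate 1. Signs turned only for uncalled differences near 0 between the 2 iPSC groups. Cldn4 was 0.011 with cyclic loess, and with arrays left out Cldn4 ran from -0.122 to 0.12, Cdh1 from -0.135 to 0.098, Krt8 from -0.29 to 0.1 and Krt18 from -0.343 to 0.215, and the cause was not tested. Called values of the 10 genes lay between 0.857 and 1.28 times those given under all alternatives, and the 1.28 came from subtracting 16 before log2. With the replicate block the number of genes called was 3364 for day 6 cells against astrocytes and 1247 for astrocyte iPSCs against day 6 cells, against 3360 and 1218 without it. Same-numbered arrays of astrocytes and day 6 cells deviated together at r of 0.41, -0.00801 and 0.224. Day 6 replicates 1 and 3 were each most like the astrocyte array of the same number. Day 6 replicate 2 was most like astrocyte replicate 3 (r = 0.164). The labels do not give the animals or cultures, and the numbers were not taken as pairs. The number of arrays limits the precision.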

Other observations

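Day 6 replicate 1 held the highest of the 3 day 6 values for 7 of the 10 genes, among them Esrp1, at 8.36 against 8.14 and 7.88 on the other arrays of the group, and Krt8, at 8.82 against 8.54 and 8.46. Replicate 3 held the highest value for 2 genes and replicate 2 for 1. In the NSC pair, Ocln, at 5.80 and 5.37, and Krt8, at 8.20 and 7.82, were apart by more than the other 8 genes, and Ttr differed between the same arrays.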
